A study of Arabidopsis thaliana with 9 samples.

Results

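Mitochondria keep a small genome of their own, and in Arabidopsis thaliana its genes carry locus codes that begin with ATMG. The genes described here are all entries of a deposited count table whose code begins with ATMG, 152 of 32833 entries. The table covers 9 RNA-seq libraries of sorted pollen tube material, in 3 groups of 3. The study followed transcripts of the male germline while pollen tubes grew alone or through pistil tissue.

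All pollen came from 1 marker line, labelled wild type. It carries 2 reporters, a sperm histone fused to a green protein (MGH3p::MGH3-GFP, under the MGH3 promoter) and a histone fused to a red protein (ACT11p::H2B-mRFP, under the promoter of actin 11). In vitro sperm were sorted from tubes kept on germination medium for 6 h. Semi in vivo sperm came from tubes that grew for 2 h on emasculated Col-0 pistils and for 4 h more with the cut pistils lying on medium. Vegetative nuclei were sorted from in vitro tubes. They are the nuclei of the large tube-forming cell, whose cytoplasm also holds mitochondria, so every comparison with sperm sets a whole cell against a nucleus. The labels do not say whether the replicates of a group are separate plants or assays, so a p-value measures the spread between these libraries only, which may be technical.

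A plant mitochondrial genome encodes ribosomal RNAs, transfer RNAs, some ribosomal proteins and a few core subunits of the respiratory chain and the ATP synthase. The remaining subunits, and the proteins that copy, transcribe and process the organelle genome, are made from nuclear genes and imported. In flowering plants mitochondria are generally passed on through the egg, while sperm cells still carry some mitochondria with little DNA.

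Total counts ran from 13768069 to 41118337 per library. The sorting labels were checked on marker genes. The 8 sperm markers summed to 18174 to 26981 CPM (counts scaled by library total) in the 6 sperm libraries and to 129 to 363 CPM in the nuclei, and 8 vegetative cell markers to 34.2 to 67.5 CPM in sperm and 23248 to 37260 CPM in nuclei. Of the genes behind the reporters, MGH3 (listed as HTR10, AT1G19890) was higher in in vitro sperm than in nuclei by a log2 fold change of 7.55 and ACT11 (AT3G12110) was lower by -3.67, with adjusted p of 0.000567 and 0.00173 in edgeR. The sperm reporter carries MGH3 itself, so its transcripts may count there, and the MGH3 value is no independent check of the sorting. None of the 8 vegetative markers was at 0 across the sperm libraries and none of the 8 sperm markers at 0 across the nuclei. Whether these marker counts are RNA carried over in sorting or RNA of the sorted material itself was not tested. The part of any carried-over RNA in the values below was not tested either.

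Mitochondria-encoded genes took a very small share of the counts in every library. In in vitro sperm they received 3229, 10422 and 7599 counts in replicates 1, 2 and 3, which is 0.0223%, 0.0257% and 0.0207% of the library. Semi in vivo sperm had 2532, 12426 and 3142 counts, or 0.0105%, 0.0302% and 0.00956%. Vegetative nuclei had 388, 663 and 441 counts, or 0.00282%, 0.00189% and 0.00161%. Every sperm library therefore lay above every nucleus library, and the semi in vivo group held both the highest library of all 9 and the 2 lowest of the 6 sperm libraries. The 95% Wilson intervals, which cover counting error only, were 0.00255% to 0.00311% for the highest nucleus library and 0.00923% to 0.00990% for the lowest sperm library. How fully these libraries captured mitochondrial RNA was not tested. A small share or a count of 0, here and below, is therefore not read as little RNA.

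**Figure D1:**
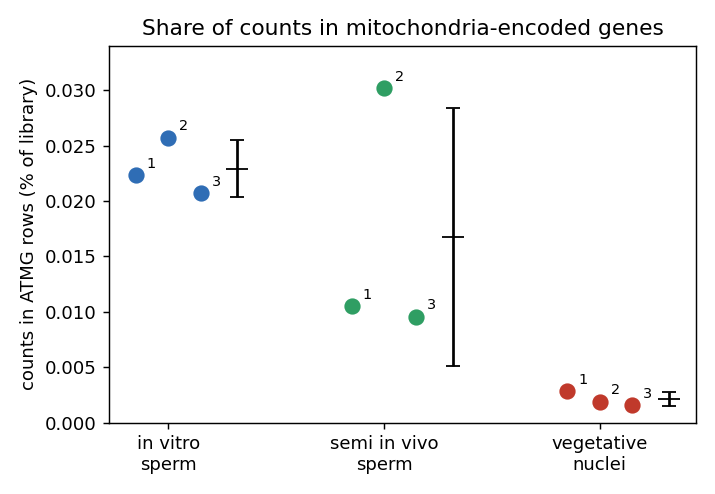
Counts in the 152 mitochondria-encoded entries as a percentage of all counts (vertical axis) for each of the 9 libraries, with replicate numbers beside the points and the mean ± SD (n = 3) to the right of each group. The nuclei lie between 0.00161% and 0.00282%, and semi in vivo replicate 2 lies at 0.0302%, apart from the other two of its group.

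The mean share was 0.0229% ± 0.00256 (SD, n = 3) in in vitro sperm, 0.0168% ± 0.0117 in semi in vivo sperm and 0.00211% ± 0.000632 in nuclei. In vitro sperm were 10.9-fold above the nuclei and semi in vivo sperm 7.97-fold, without overlap in either case. Semi in vivo replicate 2 carried much of the second ratio, which was 4.77 without it, and the difference went from 0.0147 to 0.00795 percentage points. A two-sided exact permutation test gave p = 0.1 for both, the smallest value that 3 against 3 libraries allow, and 0.15 after adjustment over the 3 comparisons. Both comparisons set a whole cell against a nucleus. Less mitochondrial RNA in the vegetative cell cannot be told apart from cytoplasm left out by sorting nuclei. Between the sperm groups the ratio was 0.732, with overlapping libraries and an exact permutation p of 0.4. A p of that size does not show that the groups were alike, and without semi in vivo replicate 2 the difference went from -0.00614 to -0.0129 percentage points.

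The genes encoded in the other organelle genome behaved differently. The 133 chloroplast-encoded entries (codes beginning with ATCG) had 0, 6 and 0 counts in in vitro sperm, 32, 10 and 6 in semi in vivo sperm and 46, 59 and 67 in nuclei. On the CPM scale the nuclei, at 1.68 to 3.34, all lay above the sperm libraries, at 0 to 1.33. So the 2 organelle genomes had opposite orders between sperm and nuclei, and the chloroplast order rests on at most 67 counts per library.

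Few of the mitochondrial entries were seen at all. Of 152, 98 had no count in any library, 54 had at least 1 and 17 reached 10 in some library. Only 3 entries were counted in all 9 libraries. Entries with a count numbered 25, 35 and 29 in in vitro sperm, 19, 27 and 10 in semi in vivo sperm and 3, 9 and 7 in nuclei. After thinning every library to 13768069 counts these numbers were 24, 27 and 24, then 17, 20 and 9, and 3, 8 and 7. The nuclei had the fewest in both cases. They also had fewer genes of any kind than most sperm libraries at that depth, 7850 to 15144 against 11009 to 25616. Over each group 47 entries were seen in in vitro sperm, 32 in semi in vivo sperm and 13 in nuclei, and 41 were seen in sperm but in no nucleus library. The only ones seen in nuclei alone were ORF110A (ATMG00280) with 2 counts and ORF102 (ATMG01250) with 1.

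Almost all mitochondrial counts fell on 3 entries. ATMG00020, ATMG01390 and ATMG00030 held 96.4% of the 40842 mitochondrial counts of the 9 libraries, and between 88.8% and 100% in each. The first and second carry no name or description in the table, and ATMG00030 is listed as the open reading frame ORF107A with no description. The kind of RNA these entries hold is therefore not known here. Whether the counts of ATMG00020 and ATMG01390 are ribosomal RNA, and so whether the share, their calls and their differences concern messenger RNA at all, was not tested. No length was at hand for these entries, so their counts are compared between libraries and not with those of other genes as levels.

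ATMG00020 received 2489, 8423 and 5820 counts in in vitro sperm, or 172, 208 and 159 CPM. Semi in vivo sperm had 2091, 10932 and 2429 counts, or 87.1, 266 and 73.9 CPM. The nuclei had 320, 504 and 374 counts, or 23.2, 14.3 and 13.7 CPM. Semi in vivo replicate 2 stood above all in vitro libraries and the other two of its group below them, and all nuclei were below all sperm. This 1 entry made up 76.0% to 88.0% of the mitochondrial counts of a library, so it sets most of the share described above.

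ATMG01390 received 349, 983 and 1095 counts in in vitro sperm, or 24.1, 24.3 and 29.8 CPM. In semi in vivo sperm it had 214, 507 and 370 counts, or 8.91, 12.3 and 11.3 CPM. In nuclei it had 43, 59 and 8 counts, or 3.12, 1.68 and 0.293 CPM. Here the 3 groups were ordered with no overlap, with in vitro sperm highest and nuclei lowest, and semi in vivo replicate 2 did not stand apart from its group as it did for ATMG00020. The counts of ATMG01390 were 11.7% to 18.8% of those of ATMG00020 in in vitro sperm, 4.64% to 15.2% in semi in vivo sperm, with replicate 2 the lowest, and 2.14% to 13.4% in nuclei.

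ORF107A received 242, 587 and 452 counts in in vitro sperm, or 16.7, 14.5 and 12.3 CPM. Semi in vivo sperm had 169, 599 and 233 counts, or 7.04, 14.6 and 7.09 CPM. Nuclei had 25, 26 and 11 counts, or 1.82, 0.740 and 0.402 CPM. The pattern across libraries resembled that of ATMG00020, with semi in vivo replicate 2 inside the in vitro range and its other replicates below it.

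**Figure D2:**
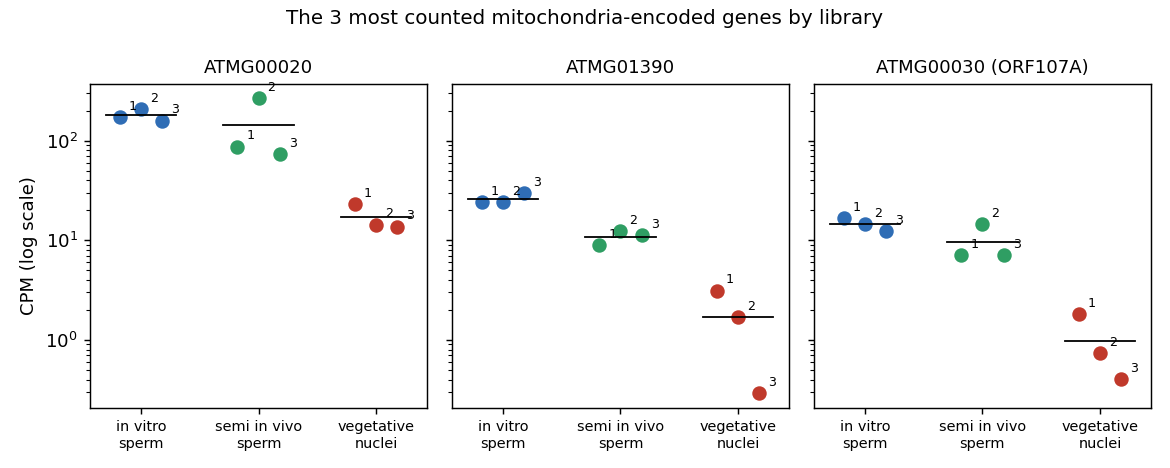
CPM on a log axis of the 3 most counted mitochondria-encoded genes in the 9 libraries, with replicate numbers beside the points and a black line at each group mean. Each panel has the nuclei lowest, and only for ATMG01390 do the semi in vivo libraries (8.91 to 12.3 CPM) all lie below the in vitro ones (24.1 to 29.8 CPM).

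Apart from these 3, the mitochondrial entries summed to 10.3, 10.6 and 6.32 CPM in in vitro sperm, 2.42, 9.44 and 3.35 CPM in semi in vivo sperm and 0, 2.10 and 1.76 CPM in nuclei. Every sperm library remained above every nucleus library in this remainder. Most of it lay in 38 entries that the table names as respiratory, ATP synthase, ribosomal or related genes. Of these 29 had a count, 1386 in all, of which 744 were in in vitro sperm, 523 in semi in vivo sperm and 119 in nuclei.

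Complex IV, the cytochrome c oxidase that passes electrons to oxygen, had the most counts of the respiratory complexes, 561 over 3 entries. COX2 (ATMG00160), a catalytic core subunit, received 27, 116 and 35 counts in in vitro sperm, 8, 117 and 38 in semi in vivo sperm and 0, 13 and 0 in nuclei. COX1 (ATMG01360), the subunit that binds oxygen, received 35, 51 and 21 counts, then 5, 75 and 0, and 0, 14 and 0. Both genes were seen in nuclei in replicate 2 alone, and in semi in vivo sperm most counts of both were in replicate 2. COX3 (ATMG00730), the third core subunit, had 6 counts in all.

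Complex I, the NADH dehydrogenase that feeds electrons into the chain, had 14 entries, of which 12 had a count and 5 reached 10 in some library. Its summed CPM was 1.66, 2.96 and 3.16 in in vitro sperm, 1.17, 2.43 and 0.882 in semi in vivo sperm and 0, 0.256 and 0.659 in nuclei. NAD4L (ATMG00650), a small membrane subunit, led with 4, 20 and 55 counts in in vitro sperm, 7, 28 and 0 in semi in vivo sperm and 0, 0 and 18 in nuclei. NAD9 (ATMG00070), a subunit of the arm outside the membrane, had 6, 24 and 0 counts, then 0, 37 and 29, and none in nuclei. NAD1C (ATMG00516), 1 of 3 table entries that together make the trans-spliced NAD1, had 1, 30 and 27 counts, then 5, 8 and 0, and 0, 9 and 0. Single subunits of 1 complex thus peaked in different libraries, and each was at 0 in some libraries where another was counted.

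The ATP synthase makes ATP from the proton gradient. Its 6 entries summed to 0.829, 0.765 and 0.681 CPM in in vitro sperm, 0.333, 1.41 and 0.213 CPM in semi in vivo sperm and 0, 0 and 1.06 CPM in nuclei. The value in nucleus replicate 3 came from ORF25 (ATMG00640), described in the table as an ATP synthase component, with 28 of its 109 counts there. Elsewhere ORF25 had 10, 16 and 17 counts in in vitro sperm and 5, 33 and 0 in semi in vivo sperm. ATP9 (ATMG01080), the membrane ring subunit, had 46 counts and ATP1 (ATMG01190), the alpha subunit, had 1. This is the only named group with a nucleus library above the in vitro sperm libraries apart from the maturase.

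The remaining groups were near the limit of detection. The 7 ribosomal protein entries had 103 counts in in vitro sperm, 35 in semi in vivo sperm and 0 in nuclei, where a count of 0 allows up to 0.218, 0.0853 and 0.110 CPM in replicates 1, 2 and 3. RPS3 (ATMG00090), a small subunit protein, had 57 of its 76 counts in in vitro replicate 2. RPL16 (ATMG00080), a large subunit protein, had 20 of its 48 counts there and 21 in semi in vivo replicate 3. MATR (ATMG00520), an intron maturase encoded within NAD1, had 50 counts, of which 35 were in nucleus replicate 2. The 5 cytochrome c maturation entries had 22 counts, all in sperm. COB (ATMG00220), the cytochrome b of complex III, had 1 count, and the translocase entry ORFX had none. Of the 84 open reading frame entries 19 had a count, ORF107A held 97.5% of their 2405 counts, and the other 18 had 61 counts together. The 4 other counted entries without name or description had 41 counts, 27 of them on ATMG01380, which was counted in all 6 sperm libraries (9, 4 and 4 in vitro, 4, 2 and 4 semi in vivo) and in no nucleus library.

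**Figure D3:**
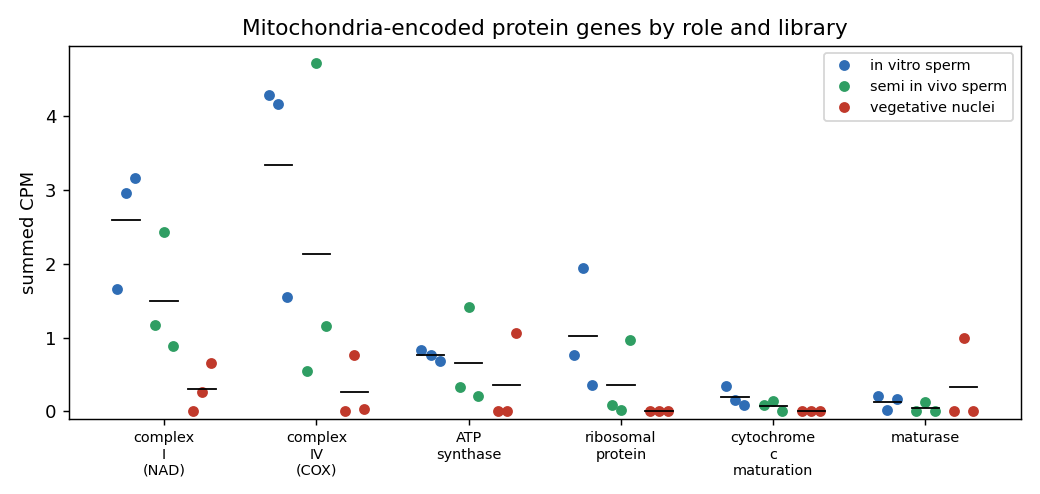
Summed CPM of the mitochondria-encoded protein genes of 6 roles in the 9 libraries, coloured by group, with a black line at each group mean. Complex I and complex IV show all nuclei below all in vitro sperm libraries, while 1 nucleus library is highest for the maturase and the ATP synthase has 1 nucleus library at 1.06 CPM, above in vitro sperm.

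Across all genes, single entries were tested with edgeR's quasi-likelihood test on TMM-scaled counts, with Benjamini-Hochberg adjustment over every gene tested. In the comparison of in vitro sperm with vegetative nuclei, 7 mitochondrial entries passed the expression filter and 3 passed an adjusted p of 0.05, all higher in sperm. Of all 14061 genes tested 44.9% passed, and 30.7% were higher in sperm, so 3 of 7 is no more than a description. An entry that was near 0 in nuclei could only pass the filter through sperm. TMM factors were 0.621 to 0.895 in sperm and 1.17 to 1.53 in nuclei, so scaled values lie further apart than unscaled CPM for genes higher in sperm. ATMG00020 was at 255 ± 74.9 TMM-scaled CPM in sperm and 12.8 ± 6.05 in nuclei, a log2 fold change of 4.31 with an SE of 0.60 and an adjusted p of 0.00222. Its unscaled means were 179 and 17.1 CPM. For ORF107A the means were 20.2 ± 2.97 and 0.770 ± 0.684, with a log2 fold change of 4.73, an SE of 1.00 and an adjusted p of 0.00993. ATMG01390 was at 36.8 ± 8.75 and 1.32 ± 1.25, with a log2 fold change of 4.81, an SE of 1.09 and an adjusted p of 0.0133. Each of the 3 was higher in 3 of 3 sperm libraries than in any nucleus library, which also held for 65.6% of all genes tested, in either direction.

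COX2, COX1, NAD4L and ORF25 had log2 fold changes of 4.91, 4.28, 2.83 and 1.55, and did not pass, with edgeR adjusted p of 0.0945, 0.136, 0.329 and 0.578. COX2 and COX1 passed in edgeR when nucleus replicate 2, the only one with counts of either, was left out (adjusted p 0.0372 and 0.0466). Nothing is read from these passes, because that choice leaves nuclei without a count of either gene. COX2 and COX1 also passed in DESeq2. Because an entry near 0 in nuclei could pass the filter only through sperm, nothing is read from the median of the 7 entries. Their median log2 fold change was 4.31, the value of ATMG00020, beside 1.70 for all genes tested. That value for all genes depends on scaling and was 0.55 with TMM factors taken from unfiltered genes, where the split of calls was 3399 higher and 2480 lower in sperm, against 4314 and 2006. The 3 calls of the mitochondrial entries held under that scaling, with ATMG00020 at a log2 fold change of 3.44. With semi in vivo in place of in vitro sperm the same 3 entries passed, with log2 fold changes of 4.09 for ATMG00020, 4.21 for ORF107A and 3.52 for ATMG01390 and edgeR adjusted p of 0.00871, 0.0179 and 0.0339. That comparison shares its nucleus libraries with the one above.

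Semi in vivo sperm were then set against in vitro sperm, the comparison that addresses growth through the pistil. Of 8 mitochondrial entries tested, 0 passed the adjusted threshold in edgeR, and 1 had an unadjusted p under 0.05. Of all 14131 genes tested 0.63% passed, and 8.05% had an unadjusted p under 0.05. The median log2 fold change was -0.44 for the 8 entries and -0.17 for all genes. The entry with the small unadjusted p was ATMG01390, at 11.6 ± 1.90 TMM-scaled CPM in semi in vivo sperm against 24.6 ± 4.26 in vitro. Its log2 fold change was -1.08 with an SE of 0.27, an unadjusted p of 0.000828 and an edgeR adjusted p of 0.088. All 3 semi in vivo libraries were below all 3 in vitro libraries, as 15.5% of all genes tested had groups that did not overlap. The call depends on the method, since ATMG01390 passed in DESeq2 (adjusted p 0.00695), with upper-quartile factors (0.0372), with a filter of 5 CPM in 3 libraries (0.0111) and with a replicate block (0.0314), and the adjusted p over all alternatives ran from 0.00695 to 1.

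The other tested entries gave wide errors. ATMG00020 was at 150 ± 109 TMM-scaled CPM in semi in vivo sperm against 168 ± 12.7 in vitro, with a log2 fold change of -0.16, an SE of 0.36 and an edgeR adjusted p of 0.999. Semi in vivo replicate 2 decided that value. Without it the log2 fold change was -0.95 with an edgeR adjusted p of 0.0276, and without replicate 1 or 3 it turned to 0.14. ORF107A had a log2 fold change of -0.42 with an SE of 0.34. Those of COX2, COX1, ORF25, NAD4L and NAD9 were -0.18, -0.90, -0.46, -1.09 and 1.07, with SEs of 1.02 to 2.15. For these 5 genes, which had at most 117 counts in any sperm library, changes of several fold in either direction lie within the errors.

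Mitochondrial genes of Arabidopsis also have copies in the nuclear genome, above all in a long insertion of mitochondrial DNA on chromosome 2, and reads from a shared stretch have no single origin. The overlap was measured on the TAIR10.1 assembly of RefSeq, whose mitochondrial sequence differs from that of TAIR10, on which the reads were counted. All shares of copies given here and below hold for TAIR10.1 and may differ on the reference of the counts. The comparison covered 26 named mitochondrial genes that could be linked by symbol. The measure was the share of all 50-base stretches of the coding sequence with an exact copy in the nuclear chromosomes. In 18 genes at least 90% of the stretches had such a copy, in 7 genes less than 50%, and RPL2 (ATMG00560), at 89.4%, lay between. The 18 genes had 0 to 50 counts each over the 9 libraries, with a median of 2. The 7 genes had 8 to 354, with a median of 96. Per kilobase of coding length the medians were 4.04 and 127 counts. RPL2 had no count.

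CPM per kilobase of coding length puts these genes on a common scale within a group. In in vitro sperm NAD4L was at 2.50 ± 2.15 (SD, n = 3) and COX2 at 2.42 ± 1.22, followed by COX1 at 0.894 ± 0.589, ATP9 at 0.637 ± 0.725 and NAD9 at 0.586 ± 0.530. In semi in vivo sperm COX2 came first, at 1.85 ± 1.64, then ATP9 at 1.12 ± 0.856, NAD4L at 1.07 ± 1.13, NAD9 at 1.04 ± 0.898 and COX1 at 0.428 ± 0.630. In nuclei the highest mean was that of NAD4L, 0.725 ± 1.25, from replicate 3 alone. Neighbours in each order differed by less than the larger of their SDs, except COX2 and COX1 in in vitro sperm, whose libraries still overlapped (1.22 to 3.66 and 0.361 to 1.53). Of these genes ATP9 has every 50-base stretch in the nuclear chromosomes, COX2 18.5% and the other three none. CCB206 (ATMG00110), a cytochrome c maturation factor with no nuclear copy, had 12.9 counts per kilobase over the 9 libraries, so a lack of copies did not always go with many counts. How the authors' counting treated reads that map to several places is not given in the sources used here, and its part in these low values was not tested.

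**Figure D4:**
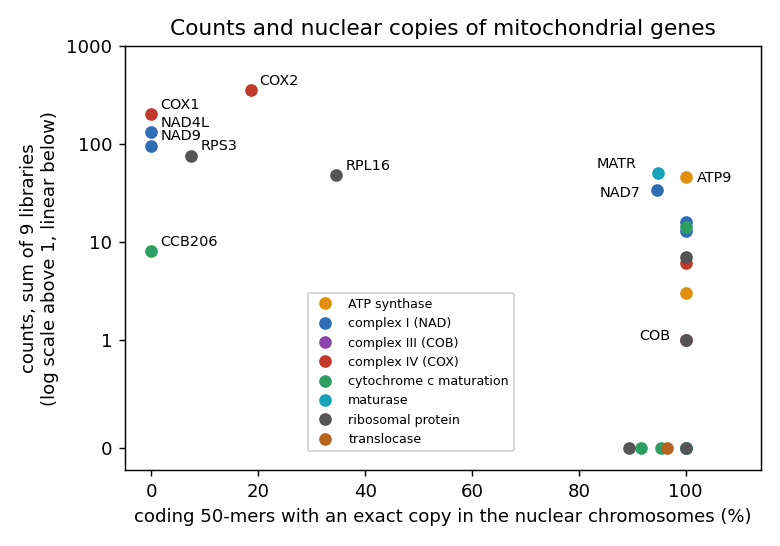
Counts summed over the 9 libraries (vertical axis, log scale above 1) against the percentage of coding 50-base stretches with an exact nuclear copy, for 26 mitochondria-encoded genes coloured by role. Copies are those of TAIR10.1, whereas the reads were counted on TAIR10. The 7 genes under 50% have 8 to 354 counts, and the 18 genes at 90% or more have 0 to 50.

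The counterparts of these genes on chromosome 2 were counted too. COB had 1 count, whereas AT2G07727, which holds all of its 50-base stretches, had 5, 64 and 54 counts in in vitro sperm, 0, 29 and 28 in semi in vivo sperm and none in nuclei. In vitro sperm were at least 62.6-fold higher than nuclei for AT2G07727, against a floor of 3 counts over the nucleus group, with an edgeR adjusted p of 0.023. Nothing is read from that p-value, because AT2G07727 had no nucleus count and passed the expression filter through sperm alone. Its log2 fold change between the sperm groups was -0.90, with an edgeR adjusted p of 0.999. Of 11 genes with at least 90% shared stretches whose closest counterpart is also in the table, 7 had more counts on the counterpart, 3 had more on the mitochondrial entry and 1 pair had none. ATP1 had 1 count and AT2G07698 28, RPL5 (ATMG00210) had 1 and AT2G07725 23, and NAD3 had 16 and AT2G07751 30. The reverse held for ATP9 with 46 and AT2G07671 with 36, RPS4 (ATMG00290) with 7 and AT2G07734 with 0, and ATP8 (ATMG00480) with 3 and AT2G07707 with 0. In the AT2G07600 to AT2G07899 stretch, 108 of 135 loci had at least 90% of their 50-base stretches in the mitochondrial genome. Together these 108 loci had 4.15, 4.86 and 3.49 CPM in in vitro sperm, 0.542, 1.97 and 1.40 CPM in semi in vivo sperm and 0, 0.0853 and 0.110 CPM in nuclei. The 3 groups did not overlap, and nuclear entries of mitochondrial sequence had the same order of groups as ATMG01390.

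Nuclear genes that serve the mitochondrial genome were read from 2 lists. Of 25 genes for upkeep of mitochondrial DNA and for RNA synthesis and processing, 16 were tested between in vitro sperm and nuclei. Of these 7 were higher in sperm and none lower, beside 30.7% of all genes tested that were higher in sperm. Nothing is read from that count, because 5 of the 7 had no count in any nucleus library and passed the expression filter through sperm alone. MSH1 (AT3G24320), which limits recombination between repeats of organelle DNA, was at 8.37 ± 3.68 TMM-scaled CPM in sperm and had no count in nuclei, at least 307-fold higher against the floor of 3 counts over the group (edgeR adjusted p 0.00645). WHY2 (AT1G71260), a mitochondrial single-strand DNA-binding protein, was at least 91.1-fold higher, with an adjusted p of 0.0176 in edgeR. Without in vitro replicate 1 or 2 its edgeR adjusted p was 0.065 and 0.0519. The gene listed as Twinkle (AT1G30680), an organelle helicase and primase, was at 33.4 ± 6.56 and 0.956 ± 1.49, with a log2 fold change of 5.09 and an edgeR adjusted p of 0.0412, and lost its call in 8 of 16 alternatives, including 5 of the 6 that left out a library. MORF3 (AT3G06790), an RNA editing factor, and nMAT1 (AT1G30010), a maturase for mitochondrial introns, were at least 248-fold and 200-fold higher in sperm, with edgeR adjusted p of 0.00743 and 0.00917. MSH1, MORF3 and nMAT1 kept their calls in every alternative that tested them. They and WHY2 had no count in any nucleus library, so their bounds, p-values and kept calls only describe these libraries. In the sperm comparison 15 of the 25 genes were tested and 0 passed.

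The nuclear subunits of complexes I to IV, cytochrome c and the ATP synthase did not move as 1 group. Of 43 genes 37 were tested between in vitro sperm and nuclei, and 10 were higher in sperm, 1 was higher in nuclei and 26 did not pass. The 10 are 27.0% of those tested, beside 30.7% of all genes that were higher in sperm and 14.3% that were higher in nuclei. Their median log2 fold change was 0.01, beside 1.70 for all genes. CYTC-2 (AT4G10040), a cytochrome c, was at 382 ± 86.0 and 27.9 ± 19.0 TMM-scaled CPM, with a log2 fold change of 3.78 and an edgeR adjusted p of 0.00478. MGP1 (AT2G21870), a subunit of the ATP synthase, was at 145 ± 24.4 and 1.49 ± 1.26, with a log2 fold change of 6.58 and an edgeR adjusted p of 0.00716. RISP (AT5G13430), an iron-sulfur subunit of complex III, was lower in sperm, at 0.602 ± 0.646 and 20.5 ± 5.20, with a log2 fold change of -5.06 and an edgeR adjusted p of 0.0242, which became 0.0712 without in vitro replicate 3. MGP1 and RISP were each low in 1 group, and the other group alone carries them past the expression filter. Their calls therefore only describe these libraries. Complex II, which has no mitochondria-encoded member in Arabidopsis, had 4 genes tested and 0 called. The log2 fold changes, which are TMM-scaled, were below 0 for all 4, from -2.03 to -0.33. Without TMM scaling the 4 genes summed to 55.3 to 75.6 CPM in sperm and 204 to 218 CPM in nuclei. These sums are not on the scale of the tests. In the sperm comparison 34 of the 43 genes were tested and 0 passed, with a median log2 fold change of 0.23.

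AOX1A (AT3G22370), an alternative oxidase that bypasses complexes III and IV, was lower in sperm, at 1.74 ± 2.48 TMM-scaled CPM in in vitro sperm and 201 ± 46.9 in nuclei, with a log2 fold change of -6.83 and an edgeR adjusted p of 0.016. The nuclei alone carry AOX1A past the expression filter, so this call only describes these libraries. All in vitro sperm libraries were below all nuclei for AOX1A, and 65.6% of all genes tested likewise had groups that did not overlap, in either direction. AOX1B (AT3G22360), the other tested gene of the family, was at 1.38 ± 1.21 and 0.340 ± 0.589, which did not pass (edgeR adjusted p 0.505). AOX1A between the sperm groups had a log2 fold change of -0.40 with an SE of 1.75.

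**Figure D5:**
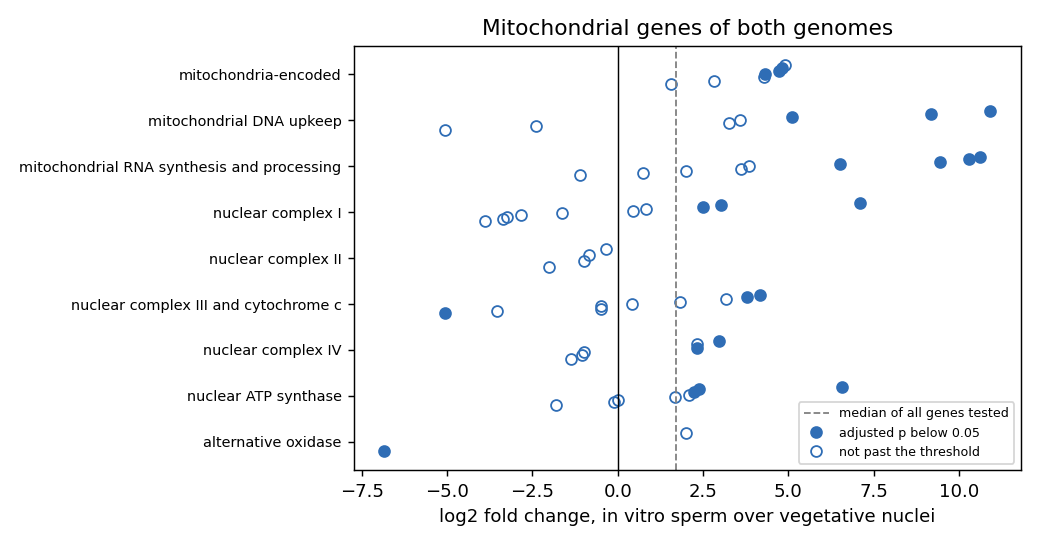
Log2 fold change of in vitro sperm over vegetative nuclei for each tested gene of the mitochondrial genome and of the nuclear mitochondrial lists, filled where the edgeR adjusted p was below 0.05. The dashed line marks the median of all genes tested, 1.70, and the tested mitochondria-encoded genes lie from 1.55 to 4.91, while AOX1A lies at -6.83.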

How the data were processed

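The values are the deposited raw counts of each gene in 9 libraries. Per the labels' protocols these are Smart-seq2 libraries, that is PCR-amplified cDNA with no molecular identifiers and no strand information. How this preparation captures mitochondrial RNA beside nuclear messenger RNA was not tested. Per the submitters' processing notes the authors used Trim Galore, HISAT2 and featureCounts on TAIR10. Not given in the sources used here are versions, the gene set and the handling of reads with several positions.

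Shares and CPM use all counts of a library. Tests used edgeR 4.0.16 (R 4.3.3) on the 6 libraries compared (filterByExpr with a minimum count of 10, TMM factors, robust quasi-likelihood fit, Benjamini-Hochberg adjustment over all genes, threshold 0.05). TMM-scaled CPM are means ± SD, n = 3, scaled within each comparison. DESeq2 1.42.0 and other settings were alternatives. The procedure was tested on simulated counts. Roles follow the table's symbols and descriptions. Named were all tested mitochondrial entries, the 10 most counted per group, and up to 4 genes per nuclear list with the smallest adjusted p, of which some are given as counts only. Members and lists were chosen with earlier results of these data known, and the comparison with nuclear copies was added after the counts had been seen.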

Additional observations from a re-analysis of the deposited data

How the results depend on the processing

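The 3 differences in mitochondrial share kept their direction in all 11 alternatives each. Their sizes moved, from 0.00457 to 0.0397 percentage points between in vitro sperm and nuclei (0.0208 as reported), 0.00215 to 0.0284 between semi in vivo sperm and nuclei (0.0147) and -0.0129 to -0.00242 between the sperm groups (-0.00614). The values nearest 0 came without ATMG00020, and the 2 highest without the 10 most counted genes in the denominator. The entries called between in vitro sperm and nuclei numbered 5 with DESeq2, 2 without an expression filter (ORF107A had an adjusted p of 0.0626) and 3 to 5 with a library left out, and 3 elsewhere. Between the sperm groups 1 entry was called with upper-quartile factors, with DESeq2, with a filter of 5 CPM in 3 libraries and with the replicate block, each time ATMG01390, and 0 to 1 with a library left out. Leaving out a library moved the log2 fold change between sperm groups from -0.95 to 0.14 for ATMG00020, -1.12 to 0.33 for COX2, -2.10 to 0.12 for ORF25 and -2.19 to 0.0067 for NAD4L, so the direction turned in some of these fits. Of the 19 nuclear genes called, 6 passed in every alternative that tested them, among them MSH1, MORF3 and nMAT1, which had no count in nuclei. Over the 19 genes 62 of 295 values did not pass the threshold, with an adjusted p of 0.05 or more, and 0 reversed direction. The cause was not tested.

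Same-numbered libraries did not vary together (correlations from -0.028 to 0.049), so the replicate block rests on a shared number alone. With it 223 genes were called between the sperm groups, against 89, and 5790 between sperm and nuclei, against 6320. Between the sperm groups DESeq2 called 340, no filter 150, the 5 CPM filter 165, 1 fit of all 9 libraries 0 (996 at an unadjusted p under 0.05), and fits without a library 51 to 123. Between sperm and nuclei the last ran from 3552 to 5854. A fit without ribosomal RNA genes was not run because the table does not mark them. The 388 to 663 mitochondrial counts per nucleus library limit what can be seen there.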
